A study of Mus musculus with 15 samples.

Results

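The potassium channel genes described here are the 69 protein-coding mouse genes whose symbols begin with Kcn followed by letters and a number and that had at least 15 reads summed over all 15 libraries. The pattern matches 93 protein-coding genes in all, and the 69 were drawn from 14652 protein-coding genes that passed the same minimum. They comprise 33 of 40 voltage-gated (Kv) genes, 9 of 15 inward rectifiers (Kir), 9 of 14 tandem-pore (K2P) genes, 7 of 8 calcium- or sodium-activated genes (KCa/KNa) and 11 of 16 auxiliary subunits. RNA was sequenced from Cx3cr1::GFP+ microglia sorted from the cortex of mice at 14 or 15 months of age, 9 PS2APP samples and 6 non-Tg samples. PS2APP mice carry human transgenes for mutant presenilin 2 and mutant amyloid precursor protein and form amyloid plaques. Animals of both groups carry the GFP reporter at Cx3cr1, a fractalkine receptor gene that microglia and other myeloid cells transcribe, and the labels do not say whether 1 or both alleles hold it. The labels name neither the promoters of the transgenes nor whether each sample is a separate mouse, so a p-value here covers the sample-to-sample spread, which may be technical. At 14 months there were 4 PS2APP and 2 non-Tg samples, and at 15 months 5 and 4.

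Potassium channels let potassium leave the cell and so set its resting voltage. In microglia a tandem-pore channel, THIK-1, encoded by Kcnk13, carries much of the resting current and is opened by the purine receptor P2RY12, and potassium efflux is a known trigger of the NLRP3 inflammasome. Activated microglia in culture are known for inward rectifier and Kv currents. Neurons use a far larger set of Kv and G protein-coupled Kir channels to shape their action potentials, so a sorted sample that retains some neuronal RNA will also show reads of those genes.

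Depth ran from 3664742 to 8455237 unique gene-model reads per library (median 5867848), of which potassium channel genes took 3204 to 6499. The microglial markers were high in every sample: 12 of 12 listed genes were detected, with a summed level of 36117 to 48065 CPM (reads relative to the effective library size) in non-Tg and 29241 to 43711 in PS2APP. Neuron markers were present too. They summed to 247.8 to 479 CPM (median 279) in non-Tg and 64.6 to 245 CPM (median 154) in PS2APP. By a narrow margin these sums did not overlap. The mean log2 CPM of the 10 tested markers did overlap, at 3.26 in PS2APP sample 4 and 3.22 in non-Tg sample 13. None of the 12 neuron genes was at 0 in all samples, though Gad1 and Tubb3 were too low to test. Samples 1, 4, 9 and 13 stood apart by immediate early genes, at a summed 2611 to 13260 CPM, and samples 12, 13 and 14 by low Xist. The endogenous transgene counterparts App and Psen2, which read human transgene RNA only as far as it aligns to the mouse gene, had log2 fold changes of 0.30 ± 0.21 (SE) and 0.62 ± 0.38 with adjusted p of 0.623 and 0.563 (edgeR). They neither support nor contradict the labels.

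The channel genes were unevenly expressed. Of 80740 reads on the 69 genes, 69.5% fell on 4 of them, Kcnj2, Kcnk6, Kcnma1 and Kcnk13. Judged per gene length, by the authors' deposited nRPKM (an RPKM, which takes out gene length and depth, with the authors' own size factor applied), 8 genes had a non-Tg mean of at least 1, 31 lay between 0.1 and 1, and 30 lay below 0.1. Reads were present in every sample for 25 genes. A filter on low counts left 36 genes for testing, and the 33 that did not pass it (15 to 191 reads each over all samples) held 3.19% of the reads. At the edge of the choice, Kcng1 (16 reads) was just inside, and Kcnj15 (11 reads) and Kcnj11 (13 reads) just outside.

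**Figure D1:**
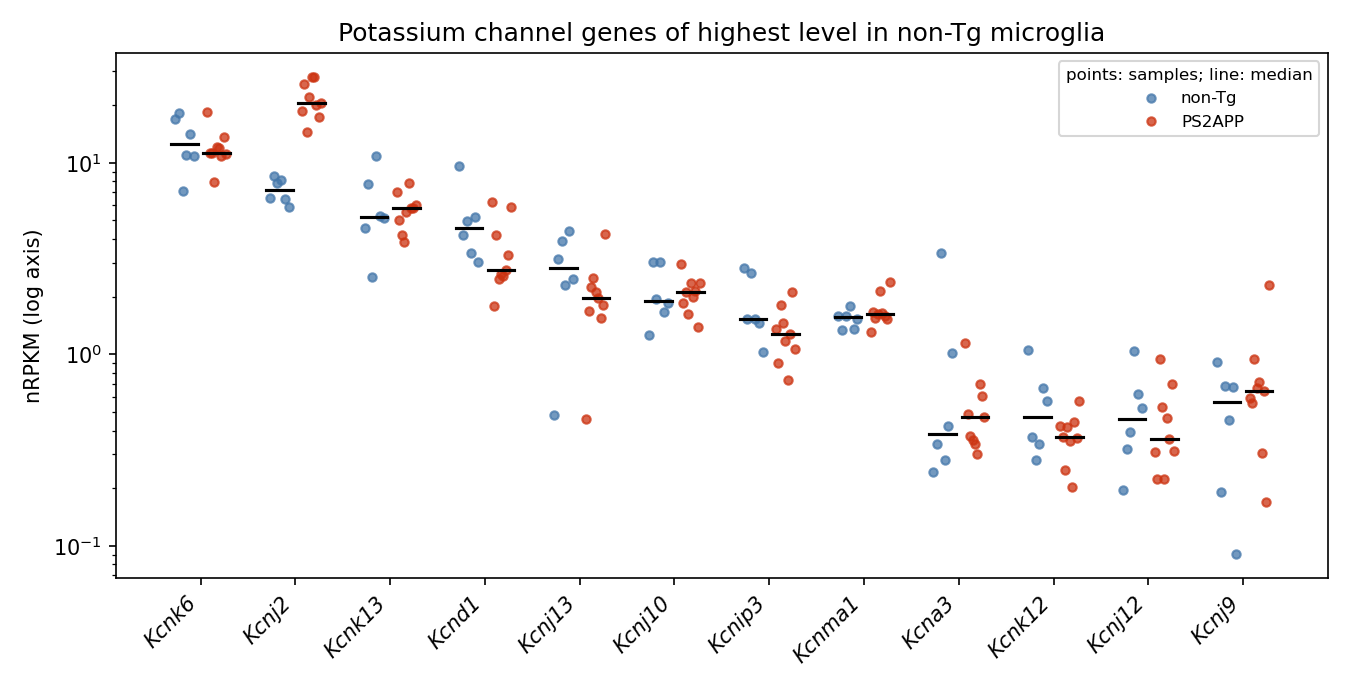
nRPKM (log axis) of the 12 channel genes with the highest non-Tg mean, 1 point per sample (6 non-Tg, 9 PS2APP) with the group median as a line. Kcnj2 is the gene whose groups separate, at 5.90 to 8.58 in non-Tg and 14.5 to 28.1 in PS2APP, while the points of the other 11 overlap.

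Promoter sequences are shown for 3 genes that stand for the 3 patterns described below: Kcnj2, the inward rectifier that rose in PS2APP, Kcnk13, a microglial channel for which no change was called, and Kcnj3, a neuronal G protein-gated rectifier whose level followed Snap25 most closely. Each is the 250 bases before the annotated start in RefSeq (GRCm38.p6), printed 5′ to 3′ on the gene's own strand, which is the plus strand for all 3: Kcnj2 at chr11:111065914-111066163, Kcnk13 at chr12:99964249-99964498 and Kcnj3 at chr2:55435720-55435969. Capitals mark GAGGAAG, the core bound by the myeloid factor PU.1, and CACGTG, an E-box, found on either strand.
Kcnj2: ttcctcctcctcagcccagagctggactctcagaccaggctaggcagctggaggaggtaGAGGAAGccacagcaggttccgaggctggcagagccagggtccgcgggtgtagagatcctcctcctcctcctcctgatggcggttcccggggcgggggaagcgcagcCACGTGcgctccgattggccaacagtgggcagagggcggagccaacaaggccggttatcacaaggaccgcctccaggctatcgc
Kcnk13: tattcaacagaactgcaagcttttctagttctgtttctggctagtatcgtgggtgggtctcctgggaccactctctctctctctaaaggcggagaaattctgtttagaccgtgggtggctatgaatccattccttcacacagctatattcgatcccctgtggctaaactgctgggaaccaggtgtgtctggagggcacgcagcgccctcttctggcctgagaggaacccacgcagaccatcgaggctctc
Kcnj3: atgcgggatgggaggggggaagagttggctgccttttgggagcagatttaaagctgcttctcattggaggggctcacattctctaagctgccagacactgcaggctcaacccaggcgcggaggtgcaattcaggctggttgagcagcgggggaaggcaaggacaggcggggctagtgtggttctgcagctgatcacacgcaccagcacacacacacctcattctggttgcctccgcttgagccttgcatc
The Kcnj2 window holds both motifs and the other windows neither. Among 27025 promoter windows of this length, 10.4% hold GAGGAAG and 6.05% hold CACGTG. Of the 49 channel genes with such a window, 7 (14.3%) and 3 (6.12%) hold them, with 5 and 3 among the 28 tested. A match describes letters only, and no binding was measured here. None of the 3 windows overlaps an annotated exon.

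Kcnj2 encodes a strong inward rectifier that holds cells near the potassium equilibrium voltage. It lies on chromosome 11 at 111066164 to 111076825 (GRCm38), and no exon of another gene overlaps it. Its level in non-Tg samples was 5.90 nRPKM at the lowest, 7.22 at the median and 8.58 at the highest, against 14.5, 20.5 and 28.1 nRPKM in PS2APP. Every PS2APP sample was above every non-Tg sample. Kcnj2 passed from second to first in level among the channel genes and from rank 1880 to rank 430 among 21267 protein-coding genes. The fold change was 2.98 (log2 1.57 ± 0.17 SE, edgeR adjusted p = 7.0e-06, n = 9 and 6). It was the 1 gene called among the 36 tested, where 1.18% of all 13994 tested genes were called (0.958% as higher in PS2APP), and the 1 whose groups did not overlap, where 0.636% of all genes had that property. In these bulk samples a larger share of cells that use a gene and more RNA per cell cannot be told apart.

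The Kcnj2 difference was of like size under the other conditions tried. With any 1 sample left out it was 1.49 to 1.63 on the log2 scale and was called in each of the 15 fits. At 15 months alone it was 1.52 (adjusted p = 0.00047, edgeR). At 14 months alone, with 2 non-Tg samples, it was 1.68 with an adjusted p of 0.0544, and the genotype-by-age term was -0.13 (unadjusted p = 0.711). With the Snap25 level of each sample as a covariate it was 1.56 ± 0.22 (adjusted p = 0.00052), and with the score of the neuron markers 1.43 ± 0.27 (adjusted p = 0.030).

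**Figure D2:**
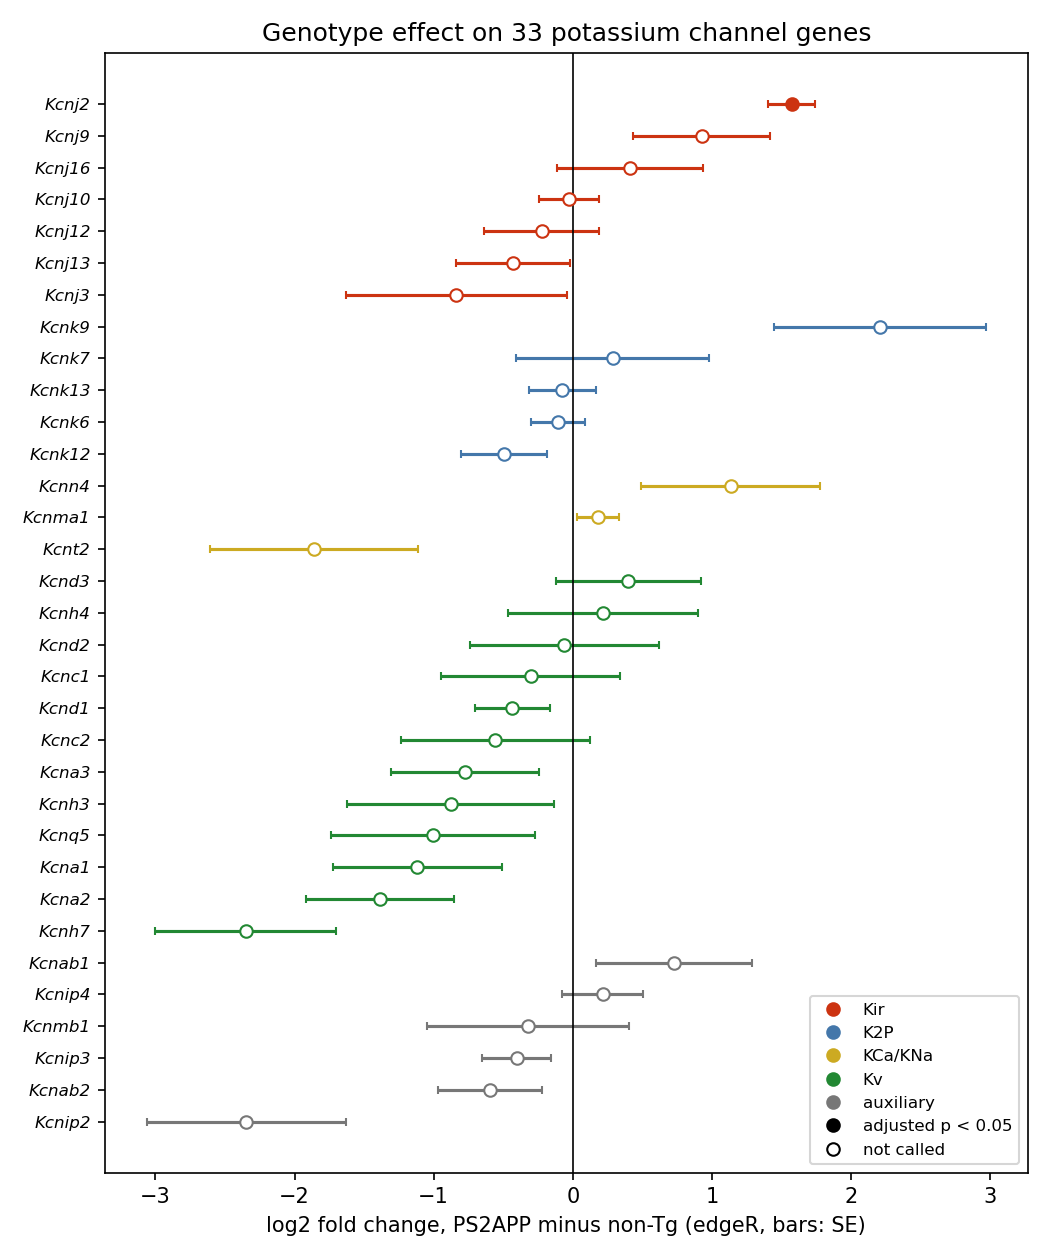
Log2 fold change, PS2APP minus non-Tg, of 33 tested channel genes by class, with the standard error as a bar (edgeR). The filled point, Kcnj2 at 1.57, is the gene with an adjusted p under 0.05, and 10 of the 12 Kv genes drawn lie left of 0.

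Among the other inward rectifiers no gene was called. Kcnj10, the rectifier by which astrocytes and oligodendrocytes take up potassium, was at 1.27, 1.89 and 3.05 nRPKM (lowest, median, highest) in non-Tg and 1.40, 2.10 and 2.97 in PS2APP. The groups lay on top of each other, and the log2 fold change was -0.03 ± 0.22 (edgeR adjusted p = 0.982). The summed astrocyte markers were at 499 to 1168 CPM in non-Tg and 335 to 682 in PS2APP. The marker with the most reads in that sum, Slc1a2, was called lower (log2 -1.01, edgeR adjusted p = 0.020). Of the 9 tested markers it was the 1 called lower, and 1 was called higher, Gfap (log2 2.08, edgeR adjusted p = 0.012). The sum therefore does not show a fall of the astrocyte markers as a set. The r of Kcnj10 with the astrocyte score was 0.14 over the 15 samples, and the part of astrocyte RNA in its level was not tested. Kcnj16, the partner subunit of Kcnj10 and the neighbour 38195 bases before Kcnj2, was at 1.66 to 22.1 CPM in non-Tg (median 3.09) and 4.99 to 13.9 CPM in PS2APP (median 5.79). That difference, 0.41 ± 0.52 on the log2 scale, had an edgeR adjusted p of 0.834. It was 1.55 ± 0.51 with samples 1, 4, 9 and 13 left out (edgeR adjusted p = 0.164) and 1.17 at 14 months alone (edgeR adjusted p = 0.492).

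Kcnj13, a rectifier of transporting epithelia such as the choroid plexus, reached 2.81 nRPKM at the non-Tg median (0.483 to 4.39) and 1.98 at the PS2APP median (0.458 to 4.26). Its lowest samples, non-Tg sample 2 with 15 reads and PS2APP sample 1 with 11, stood well below the rest. The log2 fold change was -0.43 ± 0.41 (edgeR adjusted p = 0.755). Choroid plexus markers summed to 1.11 to 407 CPM in non-Tg and 4.46 to 32.3 CPM in PS2APP. Ttr and Enpp2 were lower in PS2APP (log2 -3.40 and -2.51, edgeR adjusted p = 0.040 and 0.031), where 0.222% of all genes were called lower. Folr1, Clic6 and Kl were too low to test, and Folr1 had 6 reads in non-Tg and 27 in PS2APP. Non-Tg sample 9 held 69.8% of all Ttr reads and 51.6% of all Enpp2 reads. The ranges of both genes overlapped, for Ttr at 0 to 299 CPM in non-Tg and 0.72 to 23.8 CPM in PS2APP. Exons of Kcnj13 share 355 bases with Gigyf2 on the opposite strand, and since strandedness is not stated, reads of the pair cannot be told apart there. Kcnj12, a close relative of Kcnj2, stood at 0.458 nRPKM at the non-Tg median and 0.361 in PS2APP, and its log2 fold change was -0.22 ± 0.41 (edgeR adjusted p = 0.893). Kcnj9, a G protein-gated rectifier, was at 0.564 and 0.643 nRPKM at the medians, with single samples from 0.0902 to 2.29 (log2 0.93 ± 0.49, edgeR adjusted p = 0.477).

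Kcnk6 and Kcnk13 led the tandem-pore genes, and neither was called. Kcnk6 encodes TWIK2, a channel tied to potassium efflux in macrophages. It was the channel gene with the highest level per length in non-Tg samples, at 7.10, 12.6 and 18.2 nRPKM (lowest, median, highest), and was at 7.90, 11.2 and 18.4 in PS2APP. The ranges coincided, and the log2 fold change was -0.10 ± 0.19 (edgeR adjusted p = 0.896). Kcnk13 was at 2.55, 5.23 and 10.9 nRPKM in non-Tg and 3.88, 5.79 and 7.81 in PS2APP, where the PS2APP samples fell inside the non-Tg range (log2 -0.08 ± 0.24, edgeR adjusted p = 0.951). In non-Tg samples the range of Kcnk13 overlapped those of Kcnk6, Kcnj2 and Kcnd1, its neighbours in the order of levels.

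Kcnk12, the relative of Kcnk13 that is poorly active by itself, stood at 0.469 nRPKM at the non-Tg median and 0.369 in PS2APP (log2 -0.49 ± 0.31, edgeR adjusted p = 0.566). Kcnk9, an acid-sensitive background channel, was lower still, below 0.3 nRPKM in every sample. Its reads numbered 0 to 4 in 5 non-Tg samples and 20 in non-Tg sample 2, against 4 to 41 in PS2APP. The log2 fold change was 2.21 ± 0.76, with an edgeR adjusted p of 0.205, and 9 of 9 PS2APP samples were above the non-Tg median. Kcnk9 passed the count filter mainly through its PS2APP samples, where it is high, so neither value is separate support. Leaving out non-Tg sample 2 raised the log2 fold change to 3.45 with an edgeR adjusted p of 0.026, so that the call turned on that library. With the neuron score as a covariate it was 0.37 ± 1.01. Kcnk7, a tandem-pore gene whose product has shown no current by itself, was at 0.231 and 0.273 nRPKM at the medians (log2 0.29 ± 0.69, edgeR adjusted p = 0.924).

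Of the calcium-activated channels, Kcnma1, which encodes the large-conductance BK channel, had the smallest spread relative to its mean of the 8 genes above 1 nRPKM in both groups. It stood at 1.34, 1.56 and 1.78 nRPKM in non-Tg and 1.31, 1.63 and 2.40 in PS2APP. The mean and SD were 1.53 ± 0.16 (n = 6) and 1.72 ± 0.34 (n = 9), and the log2 fold change was 0.18 ± 0.15 (edgeR adjusted p = 0.702). Its exons share 1016 bases with a non-coding gene on the opposite strand. Kcnn4, the intermediate-conductance channel that has been studied in cultured microglia, had 1 to 11 reads in each non-Tg sample and 0 to 24 in each PS2APP sample. Its level was higher than the non-Tg median in 8 of 9 PS2APP samples and was 0 in PS2APP sample 14 (log2 1.13 ± 0.64, edgeR adjusted p = 0.518).

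Kcnd1, an A-type channel gene, was the highest Kv gene, at 3.02, 4.57 and 9.58 nRPKM in non-Tg and 1.79, 2.74 and 6.24 in PS2APP. The medians differed but the ranges overlapped, and the log2 fold change was -0.43 ± 0.27 (edgeR adjusted p = 0.563). Kcna3, the Kv channel best known from activated T cells and microglia, had a mean of 0.946 ± 1.22 (SD, n = 6) nRPKM in non-Tg that rested on 1 library. Non-Tg sample 9 held 199 of its 492 reads, or 40.4%, and also had 6361 CPM of immediate early genes. The same library had the most Snap25 (88.2 CPM) and the highest summed neuron markers (479 CPM) of all samples. Without that library the log2 fold change of Kcna3 was 0.17 in place of -0.78, and with samples 1, 4, 9 and 13 left out it was 0.58.

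The remaining Kv genes were low and mostly lower in PS2APP, without passing the test. Of 15 tested Kv genes 13 had a negative log2 fold change and their median was -0.78, where all tested genes had a median of -0.02 (7371 negative, 6623 positive). Over all 36 tested channel genes the median was -0.36, with 25 negative and 11 positive. Without adjustment 8 channel genes had p under 0.05, 6 lower and 2 higher, where 11.7% of all tested genes did so (5.95% lower and 5.73% higher). The lower genes included Kcnh7, Kcnip2, Kcna2 and Kcnt2. The 2 higher were Kcnj2 and Kcnk9, of which Kcnk9 passed the count filter mainly through PS2APP. Kcnt2, a sodium-activated channel gene, was at 1.63, 2.71 and 8.34 CPM in non-Tg and 0, 0.747 and 3.64 in PS2APP, overlapping ranges (log2 -1.86 ± 0.75, edgeR adjusted p = 0.301). Its difference was 0.06 at 14 months alone, -0.82 by limma-voom and -3.11 without the 3 libraries low in Xist.

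Kcnh7, an ERG-type channel gene of neurons, was at 1.32, 5.28 and 23.4 CPM in non-Tg and 0.374, 1.15 and 3.57 in PS2APP. No PS2APP sample reached the non-Tg median, and 41.6% of all its reads lay in non-Tg sample 12 (log2 -2.35 ± 0.65, edgeR adjusted p = 0.093). The gene shares 696 exonic bases with Gca on the opposite strand. Its call depended on the tool and on single libraries: it was -2.38 with an adjusted p of 0.0063 by DESeq2, and the edgeR fit called it without non-Tg sample 11 (-2.52) or without non-Tg sample 13 (-2.78).

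Kcna2, an axonal channel, was at 2.07, 8.54 and 13.2 CPM in non-Tg and 0.409, 3.40 and 4.99 in PS2APP (log2 -1.39 ± 0.53, edgeR adjusted p = 0.269). No PS2APP sample exceeded the non-Tg median, yet the lowest non-Tg sample lay within the PS2APP range. Kcna1, the other axonal subunit, was at 1.39, 3.50 and 22.0 CPM against 0.187, 2.46 and 8.62 (log2 -1.12 ± 0.61, edgeR adjusted p = 0.492).

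The auxiliary subunits were headed by Kcnip3, a calcium sensor that binds Kv4 channels and presenilins and also acts as a transcriptional repressor. It stood at 1.03, 1.53 and 2.81 nRPKM in non-Tg and 0.730, 1.27 and 2.12 in PS2APP, overlapping ranges (log2 -0.40 ± 0.25, edgeR adjusted p = 0.561). Kcnip2, another subunit of that family, was at 0.132, 4.12 and 7.48 CPM against 0, 0.498 and 2.16, with no PS2APP sample above the non-Tg median (log2 -2.35 ± 0.71, edgeR adjusted p = 0.139). With samples 1, 4, 9 and 13 left out Kcnip2 was at -3.44 and called (adjusted p = 0.024). Kcnip4 was at 11.9 and 14.1 CPM at the medians (log2 0.22 ± 0.29, edgeR adjusted p = 0.844). Kcnip3 was the 1 auxiliary gene at or above 1 nRPKM.

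Some genes too low to test had reads bunched in few libraries, and they are named here after their values were seen. Of 98 reads of Kcne1l 96.9% lay in non-Tg sample 9. Kcnh2, an ERG-type gene best known from the heart, had 10 reads in non-Tg samples (7 of them in sample 2) and 122 in PS2APP samples (55 of them in sample 6). With no count filter its log2 fold change was 3.02 ± 0.99 (edgeR adjusted p = 0.077). Kcnk2, a mechanosensitive background channel gene listed among those described in microglia, had 14 and 91 reads, and 52.4% of them lay in PS2APP sample 15. Kcnk1 and Kcnq3, from the same list, had 40 and 44 reads and 88 and 36 reads in non-Tg and PS2APP.

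Covariation with Snap25, a synaptic gene that microglia are not known to transcribe, was then measured for each channel gene over the 15 samples. Snap25 itself was at 30.5, 49.7 and 88.2 CPM in non-Tg and 6.16, 18.5 and 42.2 in PS2APP (log2 -1.15 ± 0.35, edgeR adjusted p = 0.132, and 0.029 by DESeq2). The mean log2 CPM of the 10 tested neuron markers was lower in PS2APP by a difference of -1.23 (2.53 ± 0.60 against 3.75 ± 0.36, SD, exact two-sided permutation p = 0.00080 over 5005 splits). Of these 10 genes 9 had a negative log2 fold change, Slc17a7 and Gad2 among them called. Snap25 and genotype therefore moved together. Each r is given over all samples, and for some genes also within each genotype. An r given over all samples alone does not separate Snap25 from genotype.

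**Figure D3:**
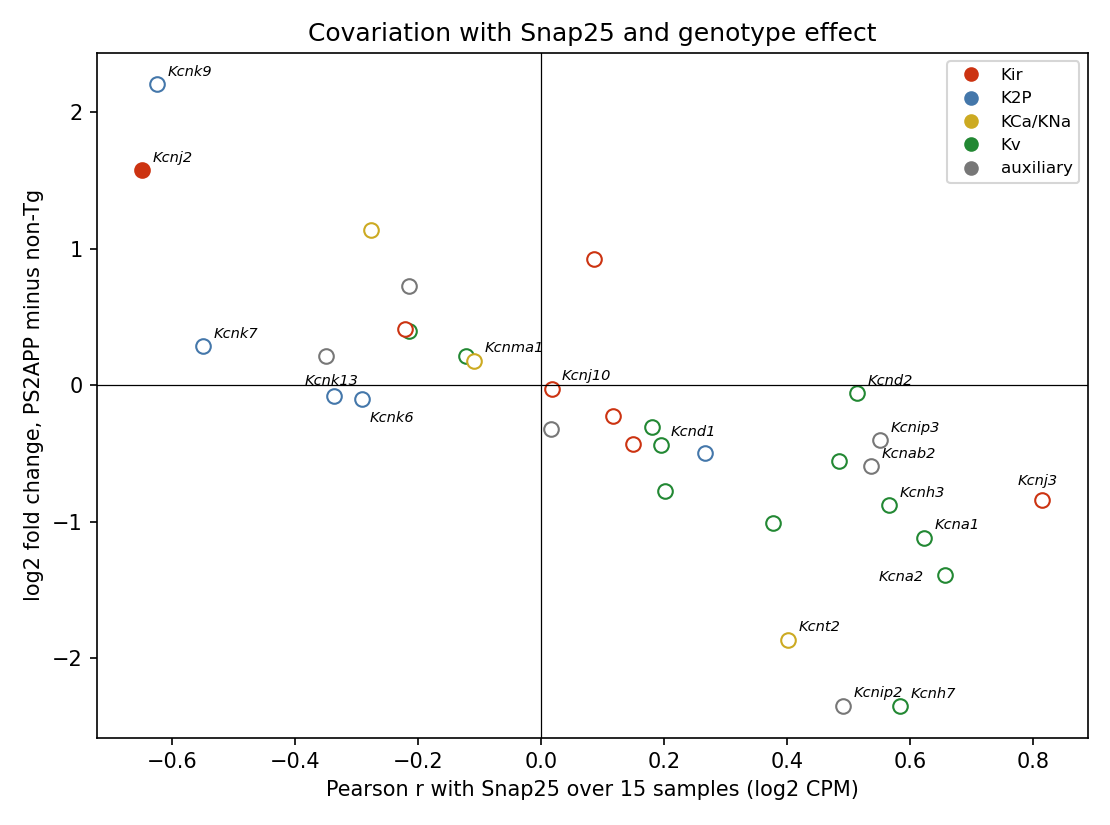
Pearson r of 33 tested channel genes with Snap25 (log2 CPM, 15 samples) against its log2 fold change, PS2APP minus non-Tg. Points are genes coloured by class and the filled point is Kcnj2 (r = -0.65). The axes are computed from the same samples, and Snap25 is itself lower in PS2APP, so they are not independent.

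No channel gene, and none of 13993 genes, passed adjustment for the correlation with Snap25 (0.0% called, 100000 permutations, two-sided), nor did any by Spearman's rho. Without adjustment 13 of the 36 channel genes had p under 0.05. Of these, 10 had a positive r, where 4.95% of all genes did so, and 3 a negative r, where 5.14% did. The median r was 0.16 over the 36 channel genes and -0.01 over all genes. Among the 10 were Kcnj3, Kcna2, Kcna1, Kcnh7, Kcnh3, Kcnip3, Kcnab2 and Kcnd2. For 9 of them r was positive within both genotypes, and the exception was Kcnh3 (-0.23 in non-Tg). The 10 were picked by their r over these same samples, which favours positive values within each genotype. The count is therefore no separate support.

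Kcnj3 had the highest r, 0.81 (rho 0.80, permutation p = 0.00026 and 0.00061, adjusted p = 0.118 for r). Its r was 0.66 without the 2 samples farthest from the median of Snap25 (samples 8 and 14), 0.84 within PS2APP and 0.47 within non-Tg. Its CPM was 0 in both samples that had the least Snap25. Kcna2, Kcna1 and Kcnh7 had an r of 0.66, 0.62 and 0.58 (rho 0.62, 0.47 and 0.70, adjusted permutation p = 0.316, 0.356 and 0.399). Without those 2 samples their r was 0.56, 0.51 and 0.44, within PS2APP 0.65, 0.57 and 0.45, and within non-Tg 0.15, 0.48 and 0.04. With the score of the other neuron markers in place of Snap25, 0.486% of all genes passed adjustment and 2 channel genes did, Kcnk9 (-0.86) among them. That score was lower in PS2APP and Kcnk9 higher there, so this r does not separate the score from genotype.

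Of the 8 genes at or above 1 nRPKM, 6 had an r between -0.34 and 0.19 with Snap25, and Kcnip3 and Kcnj2 lay outside. Kcnk6 had an r of -0.29 (adjusted permutation p = 0.746), Kcnk13 -0.34 (adjusted permutation p = 0.698), Kcnma1 -0.11 (0.937), Kcnj10 0.02 (0.992), Kcnj13 0.15 (0.899) and Kcnd1 0.19 (0.853). Kcnip3, by contrast, had an r of 0.55, at 0.39 within PS2APP and 0.48 within non-Tg. Kcnj2 had an r of -0.65 over all samples (rho -0.59, adjusted permutation p = 0.333) that did not hold within genotypes, where it was -0.15 in PS2APP and 0.23 in non-Tg. Of the other genes at the low end, Kcnk9 had -0.62, Kcnk7 -0.55 and Kcnip4 -0.35.

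**Figure D4:**
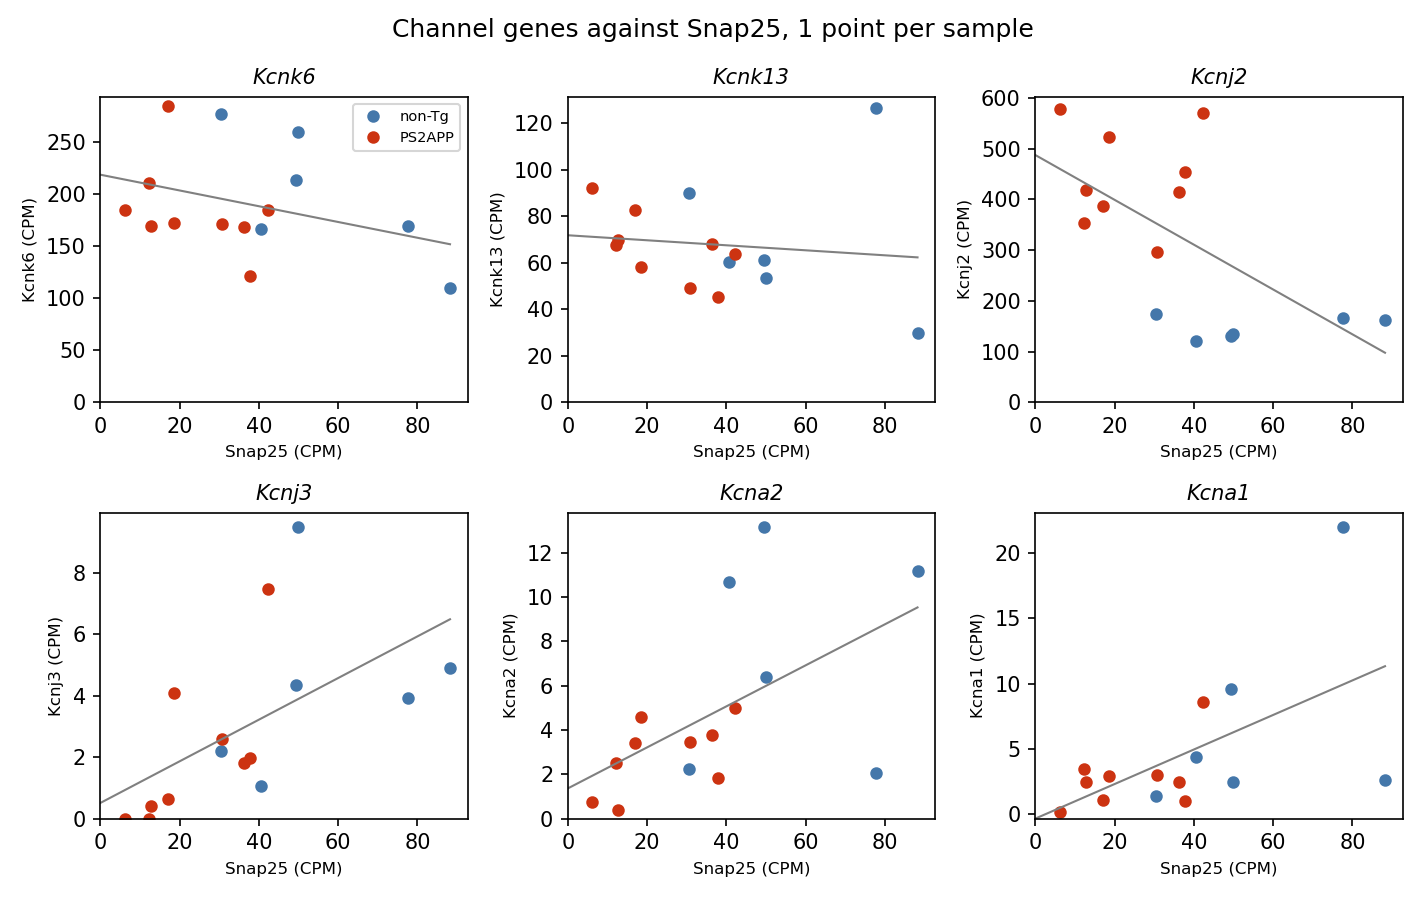
CPM of 6 channel genes against CPM of Snap25, 1 point per sample, with the least-squares line over the 15 samples. The lines of Kcnk6 and Kcnk13 meet the axis near or above the mean level of the gene, those of Kcnj3, Kcna2 and Kcna1 closer to 0, and Kcnj2 splits by genotype.

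A straight line of each gene's CPM on that of Snap25 gave the level at a Snap25 of 0, as a percentage of the gene's mean with its standard error. For Kcnk6 it was 115% ± 13, for Kcnk13 106% ± 17, for Kcnma1 102% ± 9, for Kcnj10 98% ± 14 and for Kcnd1 87% ± 25. For Kcna1 it was -7.7% ± 52, for Kcnj3 17% ± 39, for Kcnh7 17% ± 72 and for Kcna2 29% ± 35. The first group thus had intercepts near the gene's own mean, and the second group had intercepts less than 1 standard error from 0. The lines and r come from the same samples, so the intercepts of the first group restate its weak r. The second group was named for a high r with Snap25 in these same samples, so its low intercepts restate that r. Its standard errors were wide, at 35 to 72% of the mean. Kcnip3 lay between, at 67% ± 17. For Kcna3 the line gave 11% ± 50. For both Kcna3 and Kcnh7 1 library held much of the reads, so neither line can be read this way. The lines describe these samples and name no cell of origin.

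The negative log2 fold changes of the Kv genes were then set beside the neuron markers, which moved the same way. Of the 15 tested Kv genes 13 were negative with no covariate, 12 with Snap25 as a covariate and 6 with the neuron score, and the median was -0.78, -0.30 and 0.04. With other scalings (size factors of the RLE kind, or library totals alone) 13 of the 15 stayed negative. Kcna2 was at -0.64 and Kcna1 at -0.03 with Snap25 as a covariate. With the neuron score Kcna2 was at -0.26 and Kcna1 at 0.49, while Kcnh7 was at -1.38 ± 1.11. The covariates are themselves outcomes that differed with genotype, so adding them can absorb part of the genotype term. The part of neuronal RNA in these values was not tested.

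No channel gene was called for age or for genotype by age by edgeR, DESeq2 or limma-voom, and over all genes edgeR called 0.0% for each. Without adjustment 2 channel genes differed between 14 and 15 months by edgeR, Kcnd1 (log2 0.63 higher at 15 months, adjusted p = 0.603) and Kcnj9 (1.06, adjusted p = 0.619), where 7.95% of all genes did so. For the genotype-by-age term there were 3, Kcnk7 and Kcnt2 among them, where 7.42% of all genes had p under 0.05.

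The 8 genes at or above 1 nRPKM were also compared with each other, in 28 pairs over the 15 samples. None passed adjustment. By r the closest pair was Kcnd1 and Kcnip3, at 0.60 (rho 0.50, permutation p = 0.018, adjusted over the pairs 0.216). That r was 0.49 without the 2 samples farthest from the median of Kcnd1, 0.31 within PS2APP and 0.80 within non-Tg. By rho the closest pair was Kcnk13 and Kcnj10, at 0.66 (permutation p = 0.0088, adjusted over the pairs 0.247). Their r was 0.56, at 0.42 within PS2APP and 0.64 within non-Tg.

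Other genes of potassium handling gave few calls. Of 13 tested genes in a list of further potassium channels and partner subunits none was called by edgeR, with 1 higher and 3 lower at an unadjusted p under 0.05, where 5.73% and 5.95% of all genes did so. Tmem38b, a counter-ion channel of the endoplasmic reticulum, was at 5.40, 14.9 and 19.5 CPM in non-Tg and 16.1, 22.4 and 35.8 in PS2APP (log2 0.83 ± 0.31, edgeR adjusted p = 0.245). Dpp10 and Ywhaz had log2 fold changes of -1.50 and -0.40 and edgeR adjusted p of 0.360 and 0.364.

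Among 13 tested genes of the sodium-potassium pump and of potassium-chloride transport, 2 rose, where 0.958% of all genes were called higher. Without adjustment 3 were higher and 2 lower at p under 0.05 (edgeR). Fxyd5, which encodes a regulator of the pump, was at 4.71, 7.23 and 13.3 CPM in non-Tg and 16.1, 20.7 and 29.0 in PS2APP, without overlap (log2 1.41 ± 0.29, edgeR adjusted p = 0.013). Slc12a2, which encodes the sodium-potassium-chloride importer NKCC1, was at 273, 394 and 525.6 CPM against 370, 706 and 844 (log2 0.81 ± 0.17, edgeR adjusted p = 0.018). Each was called in 14 of the 15 fits that left out 1 sample, the exceptions being Fxyd5 without non-Tg sample 13 and Slc12a2 without non-Tg sample 2. Of 14 other settings Fxyd5 lost its call in 5, at log2 values up to 1.51. These were the fits without samples 1, 4, 9 and 13, without the 3 libraries low in Xist, with either covariate (Snap25, the neuron score), and at 15 months alone. Slc12a2 lost it in 4 (0.46 to 0.82), namely without the libraries low in Xist, with either covariate, and at 14 months alone.

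Of 25 tested genes for purine receptors, other channels and the inflammasome, 1 fell, where 0.222% of all genes were called lower. Without adjustment 4 were lower and 0 higher at p under 0.05 (edgeR). P2ry13, a purine receptor of homeostatic microglia, was at 2271, 3214 and 4031 CPM in non-Tg and 1605, 2148 and 2649.6 in PS2APP (log2 -0.55 ± 0.13, edgeR adjusted p = 0.030). It was called in 8 of the 15 fits that left out 1 sample and in 6 of 14 other settings. In the remaining 8 it was at -0.57 to -0.45, with either covariate, without either set of libraries that stood apart, with no age term, at either age alone, and on nRPKM. P2ry12, the receptor coupled to Kcnk13, was at a log2 difference of -0.38 ± 0.14 (edgeR adjusted p = 0.238), Nlrp3 one of -0.58 ± 0.21 (0.232), and Panx1, a channel that releases ATP, one of -1.15 ± 0.39 (0.195). For the microglial markers 0 of 12 were called and 3 had an unadjusted p under 0.05, all lower, where 5.95% of all genes were lower at that p.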

How the data were processed

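Per the submitters' processing notes, the authors aligned the reads with GSNAP to GRCm38; no version, annotation or strand setting is stated. Per the file headers, each of the 15 deposited tables holds a raw count of uniquely aligned reads per gene model (36528 NCBI Gene IDs) and nRPKM, an RPKM adjusted by a size factor per sample. RefSeq (GRCm38.p6) gave symbols for 31049 IDs and the promoters, GENCODE exon overlaps. Here counts were scaled by TMM, filtered by filterByExpr and fitted with genotype and age (edgeR 4.0.16, R 4.3.3), with Benjamini-Hochberg adjustment over 13994 genes and a threshold of 0.05; DESeq2 1.42.0 and limma 3.58.1 were alternatives. Correlations used log2 CPM with a prior count of 2. The nRPKM gave levels per length. The genotype fit was tested on simulated data.

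The members and lists were chosen with earlier results of these data known. The genes named are the 12 with the highest non-Tg nRPKM, those called or among the 6 with the smallest p, the 6 with the highest and lowest r, the channels described in microglia before, and up to 4 genes of smallest p per other list. Depth per library was 3664742 to 8455237 reads, so genes below about 1 CPM rest on few reads. A few genes that the rule would name are not reported here, though counts over all channel genes include them.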

Additional observations from a re-analysis of the deposited data

Results flagged for a closer look

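In 52 groups of channel gene values by genotype the sample at either end was compared with the rest, and 3 stood apart, where about 1 in 20 groups would by chance. Kcnj13 was low in non-Tg sample 2, at 1.49 log2 CPM with the nearest other sample at 3.58, and in PS2APP sample 1, at 1.43 with the nearest at 3.04. Kcnn4 was low in PS2APP sample 14, at -1.50 with the nearest at 0.57, from 0 reads in that library.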

How the results depend on the processing

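No paired analysis was possible because the replicate numbers run from 1 to 15 over all samples and no number is shared between the groups. The number of channel genes called for genotype was 1 as reported. It was 3 with no count filter (Kcnj2, Kcnh7 and Kcne1l) and 2 by DESeq2 and with no age term (Kcnj2 and Kcnh7). It was 2 without samples 1, 4, 9 and 13 (Kcnj2 and Kcnip2) and 0 at 14 months alone. With 1 sample left out it was 1 to 3, where 3 came without non-Tg sample 2 (Kcnj2, Kcnk9 and Kcnh2). There Kcnk9 and Kcnh2 passed the count filter through PS2APP, where they are high. The share of all genes called is given for the reported fit alone (1.18%). The other counts are therefore not results about the channel genes. For age and genotype by age the number called was 0 throughout. The number that covaried with Snap25 was 0 under 10 alternatives and each omission, and 2 with the neuron score. The neuron marker difference was -1.33 to -1.08 with 1 sample left out and -0.98 at 14 months alone (exact permutation p = 0.267, where 0.067 is the smallest possible).

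Some uncalled genes changed sign. Kcnt2, at -1.86 as reported, was at 0.064 at 14 months alone. At 15 months alone Kcnk6 was at 0.10, Kcnk13 at 0.054 and Kcnj10 at 0.18. Kcnk13 was at 0.027 by limma-voom and 0.0063 on nRPKM, and Kcnj10 at 0.0068 with no scaling, 0.064 by limma-voom and 0.018 with the neuron score, where Kcnip3 was at 0.13. Kcna3, at -0.78 as reported, was at 0.58 without samples 1, 4, 9 and 13. With 1 sample left out Kcnk6 ran from -0.23 to 0.073, Kcnk13 from -0.23 to 0.18, Kcnj10 from -0.15 to 0.14 and Kcna3 from -0.99 to 0.17. The r with Snap25 in non-Tg was 0.23 for Kcnj2 and -0.23 for Kcnh3. The cause was not tested. Depth limits the 33 untested genes, and 6 non-Tg samples limit the precision of all differences.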
